A study of Homo sapiens with 6 samples.

Results

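The septins are GTP-binding proteins of the cytoskeleton, and the 10 members described here, SEPT1, SEPT2, SEPT3, SEPT5, SEPT6, SEPT7, SEPT8, SEPT9, SEPT10 and SEPT11, were taken by symbol from the 19330 transcripts of a Ribo-Seq count table. SEPT5 was chosen by its measured log2 fold change, one of the large decreases in the contrast described below, so its values are given as a description with no test, and the other 9 members were taken as its family, without SEPT4, SEPT12 and SEPT14, which the table also lists. Current symbols read SEPTIN1 to SEPTIN11, and the older symbols of the table are kept.

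Ribo-Seq sequences the stretch of mRNA that a ribosome shields from nuclease, so that footprints on a coding sequence (CDS) report its ribosome occupancy. The cells were K562, a human chronic myelogenous leukemia line, carrying the lentiviral vector pLentiCRISPRv2 with an sgRNA against N6AMT1 (sgN6AMT1, n = 3 libraries) or against the olfactory receptor genes OR11A1 and OR2M49, as the labels spell it where the methods have OR2M4 (sgCtrl, n = 3 libraries). All cells of both groups were infected, selected in puromycin and harvested at day 10, and per the methods the 3 libraries of a group were separate transductions. Which guide each library carried is not stated in the sources used here, and no cloning of the infected cells is described in the labels. N6AMT1 is a methyltransferase that modifies eRF1, the factor that reads stop codons.

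Septins assemble in a fixed order into rods that join into filaments, rings and gauzes under the plasma membrane, where they act as scaffolds and diffusion barriers. A rod is built from members of the SEPT2, SEPT6, SEPT7 and SEPT3 groups, and members of one group can stand in for each other at its place in the rod. Septins are best known for their place at the cleavage furrow in cytokinesis, and SEPT5 is known for its abundance in platelets and neurons, where it binds the vesicle fusion machinery.

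The end of each CDS is shown because eRF1 acts there. The lines give the last 12 bases of the CDS before the stop codon, the stop codon in capitals and the 9 bases after it, read 5′ to 3′ from the GENCODE 44 transcript of the same identifier.
SEPT5: atgcaggaccagTGAcgctcgccg
SEPT2: gggcaccacgtgTAAggtgatgtg
SEPT6: ctgtgtactgaaTAGtattccccg
SEPT7: gggaagatctttTAAactctctat
SEPT8: gaaggattcctcTGAggcagcagc
SEPT9: gccccggagatgTAGacgccaccc
SEPT11: gcaagcttcacaTAAagcctggca
SEPT5 ended in TGA followed by C, a context found in 9.95% of the 17495 transcripts whose stop codon could be read, and TGA as such ended 49.2% of them. SEPT8, which also ended in TGA, had G as the next base, a context of 18.2% of transcripts. SEPT6 ended in TAG followed by T, which is the stop context of 3.54% of transcripts.

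The nucleotide-binding loop of the septins is shown because it is the feature that the family shares and because reads from so similar genes could in principle be confused. The 24 bases of each line encode the P-loop, found as G, any 4 residues, G, K and S or T in the translated CDS, and capitals mark bases that differ from SEPT5.
SEPT5: ggtgagtcaggcctggggaagtcc
SEPT1: ggGgagtcaggcctAgggaaAtcc
SEPT2: ggtgaAtcaggTctAggAaaAtcG
SEPT6: ggAgagAcaggTTtgggCaagtcc
SEPT11: ggtgagAcaggcAtTggCaaAtcc
SEPT9: ggGCagAGCggcTtgggTaaAtcc
SEPT1 differed from SEPT5 at 3 of these 24 bases, SEPT6 and SEPT11 at 5, SEPT2 at 6 and SEPT9 at 8. Over the aligned CDS, SEPT1 was the closest of the members to SEPT5, with 70.5% identical bases, and SEPT10 the farthest, with 56.0%. Despite this likeness, none of the 1112 stretches of 26 bases in the SEPT5 CDS occurred in another listed transcript or in an annotated septin pseudogene. For SEPT7, by contrast, 64.2% of the 26-base stretches also occurred in septin pseudogenes, for SEPT10 33.9% and for SEPT2 8.75%. For SEPT8, 9.88% occurred in the transcript of CCNI2, which had 0 footprints in all 6 libraries. The counts of these members depend on how such reads were assigned.

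The libraries held 1821356 to 2969736 footprints. N6AMT1 itself, listed through a transcript that GENCODE annotates as a target of nonsense-mediated decay, had 25, 24 and 34 footprints in control cells. N6AMT1-depleted cells had 10, 9 and 8, and the fitted decrease was -1.51 in log2 units, with SE 0.31 and an edgeR adjusted p of 6.7e-05. N6AMT1 met the filter on low counts only through its sgCtrl libraries. Markers of the line were present: all 10 erythroid markers passed the filter on low counts. Their summed level was 27333 to 28829 CPM in sgCtrl and 27832 to 28786 in sgN6AMT1. CPM are counts per library scaled to a common size with TMM factors. The largest parts of the sum were HBG1 (means of 9553 and 9483 CPM) and HBG2 (9920 and 9851 CPM). Of the 10 markers, 4 were lower and 3 higher, beside 13.9% lower and 12.9% higher over all genes tested. Among them the heme synthesis enzyme ALAS2 (log2 fold change 1.68, edgeR adjusted p = 1.6e-27) and the embryonic globin HBE1 (0.48, edgeR adjusted p = 1.5e-17) rose, and the transferrin receptor TFRC (-0.33, edgeR adjusted p = 1.5e-09) and the embryonic globin HBZ (-0.27, edgeR adjusted p = 5.9e-05) fell.

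On SEPT5, the control libraries held 56, 58 and 67 footprints, against 13, 15 and 25 in N6AMT1-depleted cells. On the CPM scale this was 28.1, 20.0 and 33.0 in sgCtrl and 5.70, 6.48 and 13.6 in sgN6AMT1. The groups did not overlap, and sgN6AMT1 replicate 3 stood above the other 2 libraries of its group. The means were 27.1 ± 6.58 (SD, n = 3) and 8.58 ± 4.34 (SD, n = 3) CPM, and the fitted log2 fold change was -1.67 (SE 0.23), which is 3.18-fold lower in N6AMT1-depleted cells. In a bulk lysate, fewer cells of a type and less RNA or fewer ribosomes per cell cannot be told apart, and the share of mRNA level in the footprints was not analysed here.

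**Figure D1:**
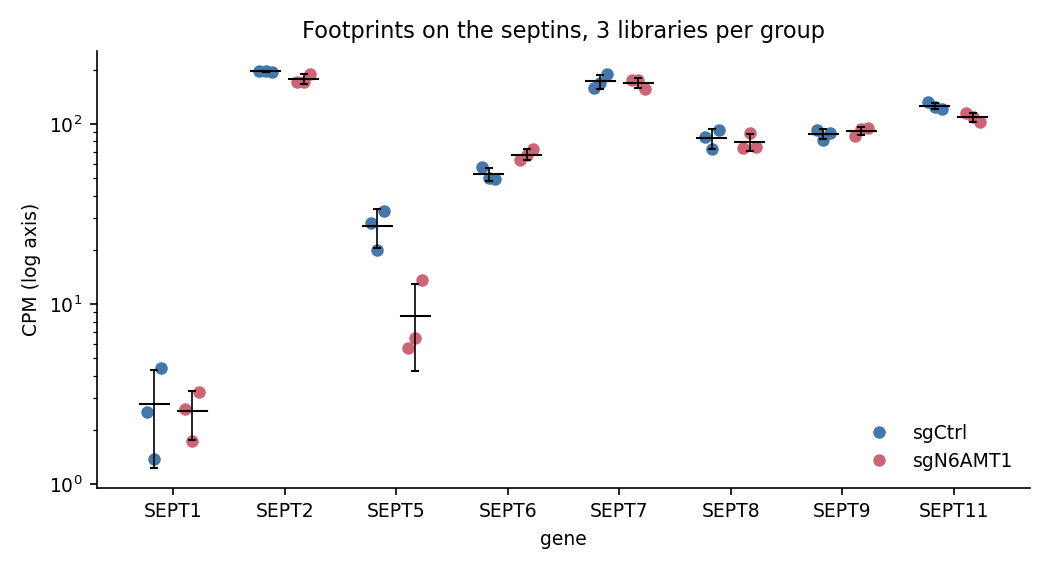
CPM (log axis) on the 8 septins with any footprint, in 3 sgCtrl and 3 sgN6AMT1 libraries; points are libraries, bars the mean and whiskers the SD. The SEPT5 libraries of sgN6AMT1, at 5.70 to 13.6, all sit below those of sgCtrl, at 20.0 to 33.0.

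Of the 10 septins, 7 passed the filter on low counts and entered the test. Apart from SEPT5, whose decrease chose it, SEPT6 was higher and the other 5 did not pass an edgeR adjusted p of 0.05. Across all 9202 genes tested, 26.9% passed that threshold, 13.9% lower and 12.9% higher, and since SEPT5 was chosen in this contrast nothing is read from the family's count beside these shares. The median log2 fold change was -0.058 over the 7 tested septins, -0.038 over the 6 without SEPT5 and 0.0063 over all genes tested.

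SEPT6, which gives its name to the group that binds GTP without hydrolysing it, was the septin that rose. It had 57.8, 50.3 and 49.8 CPM in sgCtrl and 63.1, 67.0 and 72.7 in sgN6AMT1, so every N6AMT1-depleted library lay above every control. The log2 fold change was 0.36 (SE 0.12, 95% interval 0.13 to 0.59), with an edgeR adjusted p of 0.012. The call was lost with DESeq2 (log2 fold change 0.35, adjusted p = 0.14), without sgCtrl replicate 2 (0.32, edgeR adjusted p = 0.075) and without sgN6AMT1 replicate 3 (0.31, edgeR adjusted p = 0.054).

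Neither of the other tested members of the SEPT6 group passed the test. SEPT11 had 132, 125 and 122 CPM in sgCtrl and 116, 110 and 103 in sgN6AMT1, 2 groups that did not overlap. Its log2 fold change of -0.20 (SE 0.086) did not pass (edgeR adjusted p = 0.076, 95% interval -0.37 to -0.028). SEPT8 ranged from 72.4 to 93.2 in sgCtrl and from 73.6 to 89.0 in sgN6AMT1, and its log2 fold change was -0.058 (95% interval -0.27 to 0.15, edgeR adjusted p = 0.74). SEPT10 was listed at 0 in all 6 libraries, where a count of 0 allows up to 1.01 to 1.65 CPM depending on the library.

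In the SEPT2 group, which takes the place that SEPT5 can fill, SEPT2 was far more abundant than SEPT5. SEPT2 had 196, 198 and 195 CPM in sgCtrl and 172, 171 and 190 in sgN6AMT1, and these groups did not overlap. Its log2 fold change was -0.15 (SE 0.071, 95% interval -0.29 to -0.0084) and did not pass (edgeR adjusted p = 0.11). SEPT1, known from lymphocytes, had 5, 4 and 9 footprints in sgCtrl and 6, 4 and 6 in sgN6AMT1, which was below the filter, and the groups overlapped.

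SEPT7, the member that no other septin replaces in the rod, showed no difference past the threshold. It ranged from 159 to 190 CPM in sgCtrl and from 157 to 176 in sgN6AMT1, with a log2 fold change of -0.019 (95% interval -0.17 to 0.13, edgeR adjusted p = 0.89), whose sign changed under 4 alternatives. SEPT9, which extends the shorter rod to the longer one, ranged from 81.7 to 92.9 in sgCtrl and from 85.9 to 95.0 in sgN6AMT1, with a log2 fold change of 0.064 (95% interval -0.13 to 0.26, edgeR adjusted p = 0.69). SEPT3, known from neurons, was listed at 0 in all 6 libraries. Of the 7 tested septins, SEPT2, SEPT6 and SEPT11 had libraries that did not overlap between the groups, as had SEPT5, whose decrease chose it. Of all genes tested, 37.5% did so, and nothing is read from the family's count beside this share.

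**Figure D2:**
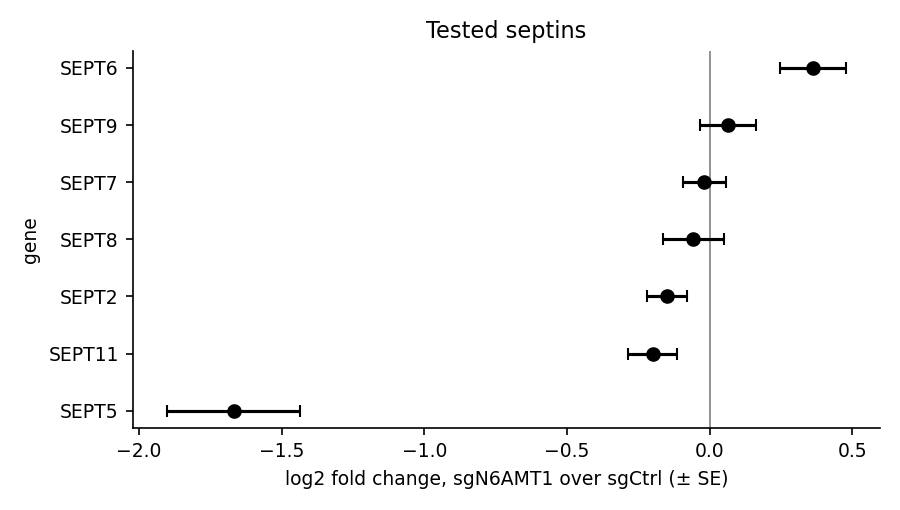
Log2 fold change of sgN6AMT1 over sgCtrl for the 7 tested septins; points are edgeR estimates and whiskers 1 SE. SEPT5, at -1.67, lies apart from the other members, which run from -0.20 for SEPT11 to 0.36 for SEPT6.

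Outside the 10 members, SEPT12 was listed at 0 in every library, SEPT4 had 1 footprint in sgCtrl and 0 in sgN6AMT1, and SEPT14 had 3 in sgCtrl and 2 in sgN6AMT1. None of these 3 genes entered the test.

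Levels of different septins were compared per kilobase of CDS, as CPM per kilobase. In sgCtrl the order was SEPT2 at 165 ± 1.34 (SD, n = 3), SEPT7 at 131 ± 11.9, SEPT11 at 95.6 ± 4.03, SEPT8 at 57.5 ± 7.2, SEPT9 at 49.9 ± 3.25, SEPT6 at 40.3 ± 3.41, SEPT5 at 23.8 ± 5.79 and SEPT1 at 2.48 ± 1.38. Only SEPT8 and SEPT9 were neighbours in this order whose sgCtrl libraries overlapped. In sgN6AMT1 the order of the means was the same, but SEPT9 at 52.0 ± 2.80 and SEPT6 at 51.8 ± 3.71 then overlapped too, and SEPT5 stood at 7.55 ± 3.81.

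Per length, SEPT5 made up 4.35%, 3.24% and 4.96% of the family's footprints in sgCtrl and 0.963%, 1.07% and 2.24% in sgN6AMT1. SEPT6 made up 7.14% ± 0.641 (SD, n = 3) in sgCtrl and 9.79% ± 0.600 in sgN6AMT1. The SEPT2 group went from 33.8% ± 0.289 to 30.0% ± 2.38, and the SEPT6 group from 34.2% ± 1.32 to 35.8% ± 0.95. The SEPT2 group includes SEPT5, whose decrease chose it and which went from 4.18% ± 0.870 to 1.42% ± 0.708. SEPT2 itself went from 29.2% ± 1.38 to 28.2% ± 1.58. These shares add to the whole within a library, so they are not independent of each other. The family's part of all footprints was 0.0738%, 0.0700% and 0.0757% in sgCtrl and 0.0703%, 0.0726% and 0.0718% in sgN6AMT1, and the groups overlapped.

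**Figure D3:**
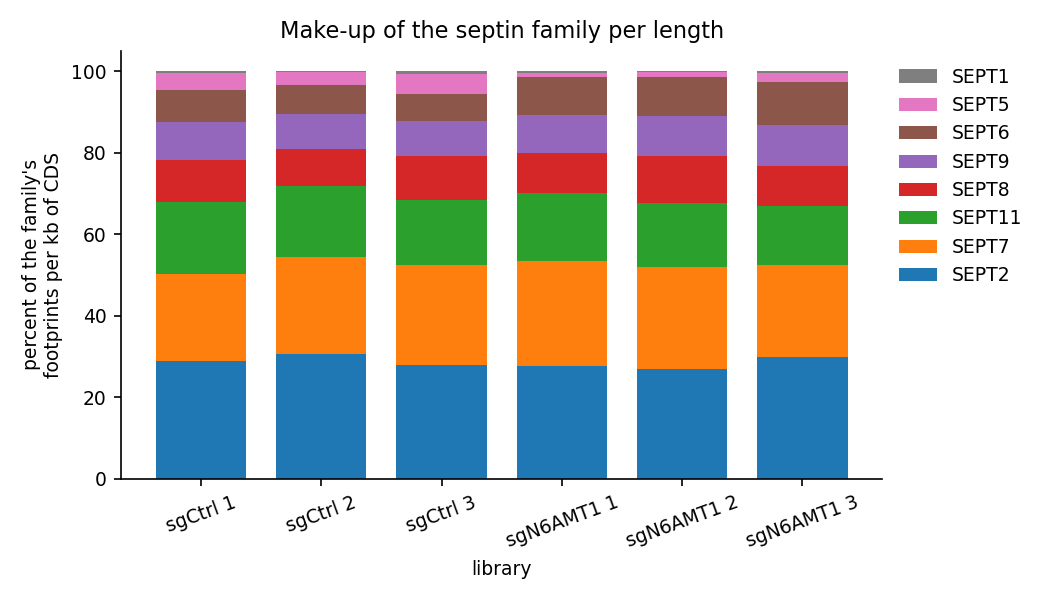
Share of each septin in the family's footprints per kilobase of CDS, in percent, with 1 stacked bar per library. SEPT5 shrinks from 3.24 to 4.96% in sgCtrl to 0.963 to 2.24% in sgN6AMT1, and SEPT2, SEPT7 and SEPT11 fill most of every bar.

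SEPT5 lies on chromosome 22 in the 22q11 region, with its listed transcript at chr22:19718432-19722629 on the plus strand (GRCh38), 11 exons and a CDS of 1137 bases. The next gene, GP1BB, encodes a subunit of the platelet receptor for von Willebrand factor and starts 909 bases after that transcript ends. The GENCODE genes themselves overlap by 686 bases, since longer SEPT5 transcripts run into GP1BB, and which transcripts the cells made was not analysed here. GP1BB had 135, 135 and 152 CPM in sgCtrl and 59.6, 64.8 and 85.8 in sgN6AMT1, 2 groups that did not overlap. GP1BB fell by 1.02 on the log2 scale (SE 0.098), with an edgeR adjusted p of 3.0e-15.

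Around SEPT5, 21 of 24 listed 22q11 genes were tested, of which 6 were lower and 3 higher, beside 13.9% lower and 12.9% higher over all genes tested. Their median log2 fold change was -0.11, against 0.0063 over all genes tested. Beside GP1BB, the replication factor CDC45 (-0.29, edgeR adjusted p = 4.4e-05) and the mitochondrial ribosomal protein MRPL40 (-0.29, edgeR adjusted p = 8.3e-04) fell. TXNRD2 (0.33, edgeR adjusted p = 0.0031) and GNB1L (0.31, edgeR adjusted p = 0.043) were among the 3 higher genes. The region thus held genes called in both directions.

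**Figure D4:**
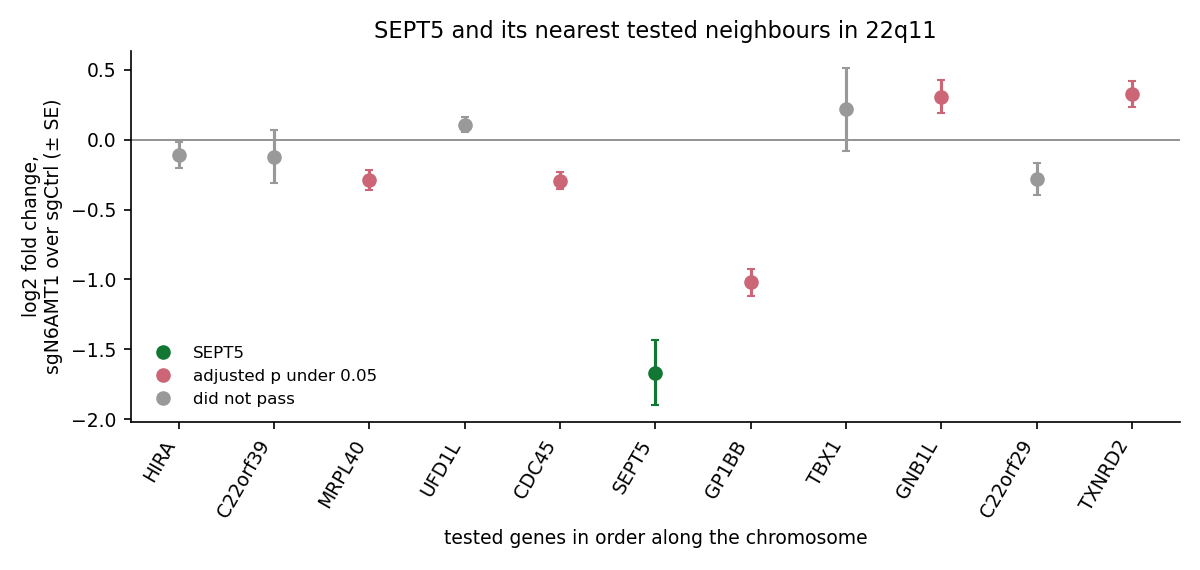
Log2 fold change of sgN6AMT1 over sgCtrl (± SE) for SEPT5 and the 5 nearest tested 22q11 genes on each side, in their order along the chromosome; red marks an edgeR adjusted p under 0.05 and SEPT5 is green. SEPT5 (-1.67) and its neighbour GP1BB (-1.02) are the lowest points plotted.

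Because SEPT5 and GP1BB are both known from platelets, the megakaryocyte and platelet markers were read beside them. Of 16 markers, 8 were tested, 5 were lower and 0 higher in edgeR (0 higher also at an unadjusted p under 0.05, in DESeq2 and in limma-voom), beside 13.9% lower and 12.9% higher over all genes tested. The median log2 fold change of the 8 was -0.90. GP1BB, for which the list was read, is itself among the 5, so the count is not separate from its decrease. The integrin subunit ITGA2B had 25, 36 and 22 footprints in sgCtrl and 5, 11 and 6 in sgN6AMT1 (log2 fold change -1.79, edgeR adjusted p = 4.3e-06). ITGA2B met the filter on low counts only through its sgCtrl libraries, the group where it was higher. It is counted in the 5, the 8 and their median. The collagen receptor GP6 (-1.62, edgeR adjusted p = 1.1e-07) and the thrombin receptor F2RL3 (-1.61, edgeR adjusted p = 1.7e-08) fell too. The defining markers GP1BA, GP5, PF4, VWF and SELP were at 0 in all 6 libraries. The 3 tested markers that did not pass were ITGB3 (-0.076, edgeR adjusted p = 0.91), NFE2 (-0.11, edgeR adjusted p = 0.28) and THBS1 (0.36, edgeR adjusted p = 0.23). The summed level of the list was 374 to 419 CPM in sgCtrl and 265 to 292 in sgN6AMT1. Its largest parts were NFE2 (means of 176 and 161 CPM) and GP1BB (141 and 70.1 CPM), the neighbour of SEPT5 described above. The list's part in the SEPT5 values was not tested. Of the 9 lymphoid and monocyte markers in the table, 3 were tested, of which lysozyme (LYZ, log2 fold change 0.90, edgeR adjusted p = 2.5e-11) and the phosphatase PTPRC (0.61, edgeR adjusted p = 2.0e-05) were higher, beside 12.9% of all genes tested. The T cell receptor subunit CD3D, the third tested, had a log2 fold change of -0.31 and did not pass (edgeR adjusted p = 0.11, unadjusted p = 0.039). ITGAM, below the filter, had 2, 1 and 0 footprints in sgCtrl and 17, 9 and 15 in sgN6AMT1. In DESeq2, 4 markers of the list were tested and 3 were higher, beside 12.3% of all genes called in either direction. MS4A1 and CD14 were at 0. The summed level of that list was 125 to 157 CPM in sgCtrl and 201 to 223 in sgN6AMT1, and its part in the septin values was not tested.

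Of the 37 tested genes of the 3 septin-associated lists, 9 passed, 3 lower and 6 higher, a share near the 26.9% of all genes tested. Of the CDC42 effectors called Borg proteins, which bind septins, and CDC42 itself, 3 of 6 were tested and 0 passed in edgeR (adjusted p from 0.075 to 0.42), with 1 at an unadjusted p under 0.05 and 0 past the threshold in DESeq2 and in limma-voom. Of 17 genes of the contractile ring and midbody, 16 were tested and 3 passed, beside 26.9% of all genes tested. The nonmuscle myosin heavy chain MYH10 fell (log2 fold change -0.64, edgeR adjusted p = 1.7e-12), and the midbody protein CEP55 (0.84, edgeR adjusted p = 4.2e-04) and the myosin light chain MYL12B (0.15, edgeR adjusted p = 0.030) rose. The median over the 16 was 0.032.

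Of 23 genes of the exocyst, which tethers secretory vesicles, and of vesicle fusion, 18 were tested, with 4 higher, 2 lower and a median of 0.14, beside 12.9% higher and 13.9% lower over all genes tested. SNAP23, a SNARE of platelets and other cells outside neurons, had a log2 fold change of 0.59 (edgeR adjusted p = 5.5e-09). The SNARE VAMP8 (0.49, edgeR adjusted p = 9.0e-07) and the exocyst subunit EXOC4 (0.49, edgeR adjusted p = 1.8e-05) rose as well. Syntaxin 1A, to which SEPT5 binds, was below the filter.

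**Figure D5:**
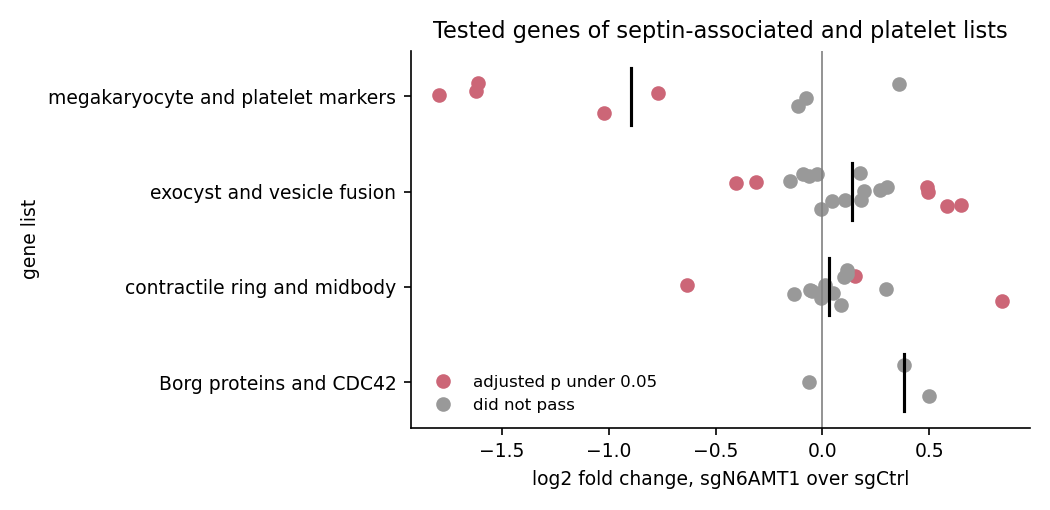
Log2 fold change of sgN6AMT1 over sgCtrl for the tested genes of 3 septin-associated lists and of the platelet markers; points are genes, red where the edgeR adjusted p was under 0.05, and black bars are medians. The platelet markers have their median at -0.90, and the other 3 lists at 0.38, 0.032 and 0.14.

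The 5 genes whose log2 levels followed SEPT5 most closely over the 6 libraries were SUMO4, NOL9, KEAP1, HIST1H2AI and PCNT, among 7803 genes with a mean of at least 10 CPM. Pearson's r was 0.995 for SUMO4, 0.995 for NOL9, 0.995 for KEAP1, 0.995 for HIST1H2AI and 0.994 for PCNT, with 0.980 for GP1BB. The r does not measure the size of a change, and all 5 genes fell less than SEPT5 (-1.67). Their log2 fold changes were -0.28 for SUMO4, -0.29 for NOL9, -0.16 for KEAP1, -0.32 for HIST1H2AI and -0.65 for PCNT. SUMO4 and KEAP1 did not pass (edgeR adjusted p = 0.40 and 0.18). An r of at least 0.95 was reached by 139 genes. The 6 points fall into the 2 groups and share their depth, so the r values describe likeness over 6 libraries and carry no test.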

How the data were processed

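The deposited table held whole-number footprint counts per transcript, neither normalized nor pooled. Per the methods, the authors trimmed adapters with cutadapt, mapped reads of footprint length with HISAT2 and bowtie2 to GRCh38 and summed riboWaltz P-sites over the CDS; they also counted over a gene annotation for DESeq2, and which counts the table holds is not stated. No molecular identifiers are described, and the limit of 3 counts behind a 0 covers counting error only. The edgeR intervals also take in the spread between the libraries of a group. The 6 libraries were grouped by their titles, and every column was used.

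Counts were tested with edgeR 4.0.16 (quasi-likelihood, robust, TMM factors, filterByExpr with a minimum count of 10, R 4.3.3), p-values being adjusted by Benjamini-Hochberg across all 9202 tested genes (threshold 0.05). The 10128 transcripts left out held 0.465% of footprints. Fits were tested on simulated data. DESeq2 1.42.0, limma-voom (limma 3.58.1), other scaling factors and filters, a replicate block and fits without each library were alternatives. No 2 libraries agreed within sampling noise (chi-square per degree of freedom 1.25 to 1.68 within groups). GENCODE 44 matched 17687 of 19330 transcripts by identifier, ignoring versions, and gave CDS lengths and sequences. Both strands of the matched transcripts and of the septin pseudogenes were searched for exact 26-base matches. Likeness used log2(CPM + 1). The members and gene lists were chosen with earlier results of these data known. Named genes were all 10 members, SEPT4, SEPT12, SEPT14, N6AMT1, GP1BB, each list's genes past the threshold (the 4 with the smallest p where more passed) and the 5 genes most like SEPT5. Some genes that this rule names are not reported here.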

Additional observations from a re-analysis of the deposited data

How the results depend on the processing

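Over 13 alternatives the SEPT5 log2 fold change ranged from -2.11 (without sgN6AMT1 replicate 3) to -1.45 (without sgN6AMT1 replicate 1), which is a description, since these libraries chose SEPT5 and refitting them is no independent support. Counts of septins past the threshold below include SEPT5. A minimum mean of 50 counts removed SEPT5 and left 6 septins and 2 platelet markers tested. Of these, 1 septin and 1 platelet marker passed the threshold. With DESeq2, 1324 of 10780 genes passed (12.3%), in place of 2473 of 9202 (26.9%). Beside that share, 1 of 8 septins passed, and 5 of 41 genes of the 3 septin-associated lists in place of 9 of 37. Of the exocyst and vesicle fusion list, 3 of 20 passed in place of 6 of 18. Of the 22q11 genes, 4 of 21 passed in place of 9 of 21. The cause was not tested. With total counts and no factors, 1 gene of the Borg list passed in place of 0. The SEPT7 log2 fold change turned positive with total counts (0.036) and with a minimum mean of 50 counts (0.0068). Without each library in turn, SEPT7 ranged from -0.070 to 0.045 and SEPT8 from -0.17 to 0.025. Over the same fits 1859 to 2322 genes, 1 to 2 septins and 0 to 1 gene of the Borg list passed. SEPT2 passed without sgN6AMT1 replicate 3 (log2 fold change -0.20, edgeR adjusted p = 0.046, against 0.046 to 0.35 over its alternatives). The replicate numbers did not pair the libraries (correlation of same-numbered libraries -0.061 to 0.020), and with a replicate block 2390 genes and 2 septins passed. Lengths from RefSeq proteins were not run. With 13 to 67 footprints a library, the SEPT5 values have the widest error of the tested septins, and for SEPT1, SEPT3 and SEPT10 no change could be measured at this depth.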
